A study of Mus musculus with 572 samples.

Results

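The cells described here are EED-cKO mTEChigh that carry Aire transcripts at 1 of 2 doses, and the question is how the rest of their transcriptome differed between a high and a moderate dose of Aire. Each cell was its own RamDA-seq library, which reads total RNA over its full length and has no molecular identifiers. The cells were chosen by their own measured level of Aire (ENSMUSG00000000731), the count of Aire per 1000000 reads of the cell (CPM). Cells with 1200 CPM or more were taken as high dose and cells with 200 to 700 CPM as moderate dose. High-dose and moderate-dose cells numbered 38 and 18 in batch 3, 29 and 15 in batch 4, 15 and 17 in batch 8, and 19 and 23 in batch 9, of 87, 76, 63 and 77 EED-cKO cells in these batches. The high dose thus took 33.3% of EED-cKO cells and the moderate dose 24.1% (73 cells), together 30.4% of the 572 cells in the series. The other EED-cKO cells were 53 between the ranges and 76 under 200 CPM, which belong to neither arm.

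EED-cKO mice carry a floxed EED, a core subunit of PRC2, cut by a Cre under the Foxn1 promoter, which acts in thymic epithelial cells. Aire/EED-dKO mice carry the same deletion on an Aire-KO background and gave the other 47.03% of cells. All were C57BL/6 neonates of unknown sex, sorted as CD45- EpCAM+ Ly51- MHCII-high. Both arms thus come from mice with this deletion, which was not checked cell by cell, and nothing here compares them with cells of mice with an intact Eed. EED-cKO cells came in 4 experimental batches, 3 and 4 at day 4 and 8 and 9 at day 3, and the Aire/EED-dKO cells in 4 others at day 4. Since the labels name no animal or litter, the EED-cKO cells count as 1 sample. No p-value is given, and the range over the 4 batches, which also spans 2 ages, stands for the spread.

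Aire is a transcriptional regulator of mTECs that lets them transcribe genes otherwise restricted to peripheral tissues, so that developing T cells meet those self-antigens. Its loss causes organ-specific autoimmunity. PRC2 places H3K27me3, a mark of repressed chromatin, on promoters, and without EED the mark is lost. Aire-driven genes, in the sense of the study, depend on Aire and are transcribed in Aire-expressing cells, whereas Aire-enhanced genes are also transcribed in other mTEChigh, among them mimetic cells that resemble peripheral cell types.

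Aire itself served to choose the cells, so its level is a description only. Pooled over batches it was 1728 CPM at high dose (exact 95% interval 1721 to 1735, counting error only) and 461 CPM at moderate dose (457 to 465). By cell it ran from 1219 to 3706 CPM with a median of 1709 at high dose, and from 230.6 to 694 with a median of 462 at moderate dose. Batch values were 1786, 1748, 1726 and 1588 CPM at high dose and 462, 460, 422 and 487 CPM at moderate dose in batches 3, 4, 8 and 9. The lowest high-dose cell had 1219 CPM and the highest cell left out below it 1193. The highest moderate-dose cell had 694 CPM and the next cell above it 711, whereas the lowest had 230.6 and the next below 199.1. Aire/EED-dKO cells had 22.5 CPM, but 2 of the libraries so labelled had 200 CPM or more and 1 of them 1665 CPM. The values of that group below include both, and without them no gene named with such a value changed its order against the arms.

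Depth was alike in the 2 arms, with a median of 1255742 reads per cell at high dose (216139 to 1847249) and 1289469 at moderate dose (371453 to 2419312). Mitochondrial genes took 0.596% and 0.558% of reads. The sort was on MHC class II protein, and transcripts of H2-Aa, an MHC class II chain, were in every cell, at 774 CPM or more at high dose and 597 CPM or more at moderate dose. Lck, a T cell kinase, was at 7.45 and 22.6 CPM, and all 11 listed hematopoietic markers together made 65.01 CPM at high dose (47.99 to 89.9 by batch) and 66.1 CPM at moderate dose (21.8 to 122.6). Of these 11 markers 6 were higher and 5 lower at high dose. The part of other cells' RNA in the results was not tested.

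Cells at high Aire dose had reads from fewer Aire-driven genes than cells at moderate dose. When every cell was thinned to 200000 reads, 61.9 of the 443 Aire-driven genes held here (a part of the study's list, with Aire left out) had a read in a high-dose cell, against 77.4 in a moderate-dose cell. High-dose batch means were 65.4, 65.8, 56.5 and 60.1, and moderate-dose means 95.9, 85.7, 59.4 and 68.7 in batches 3, 4, 8 and 9. The difference was -15.5 genes over the 4 batches, and it was negative in each, by -30.5 and -19.9 genes at day 4 and by -2.95 and -8.64 genes at day 3. Cells of the 2 arms overlapped widely, with a lowest and a median of 29 and 58 genes at high dose and of 31 and 71 at moderate dose. Within a batch the SD between cells was 13.4 to 23.9 genes at high dose and 22.5 to 36.3 at moderate dose, so only in batch 3 did the gap exceed the SD of the high-dose cells. The day 3 gaps lay well inside the spread between cells.

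**Figure D1:**
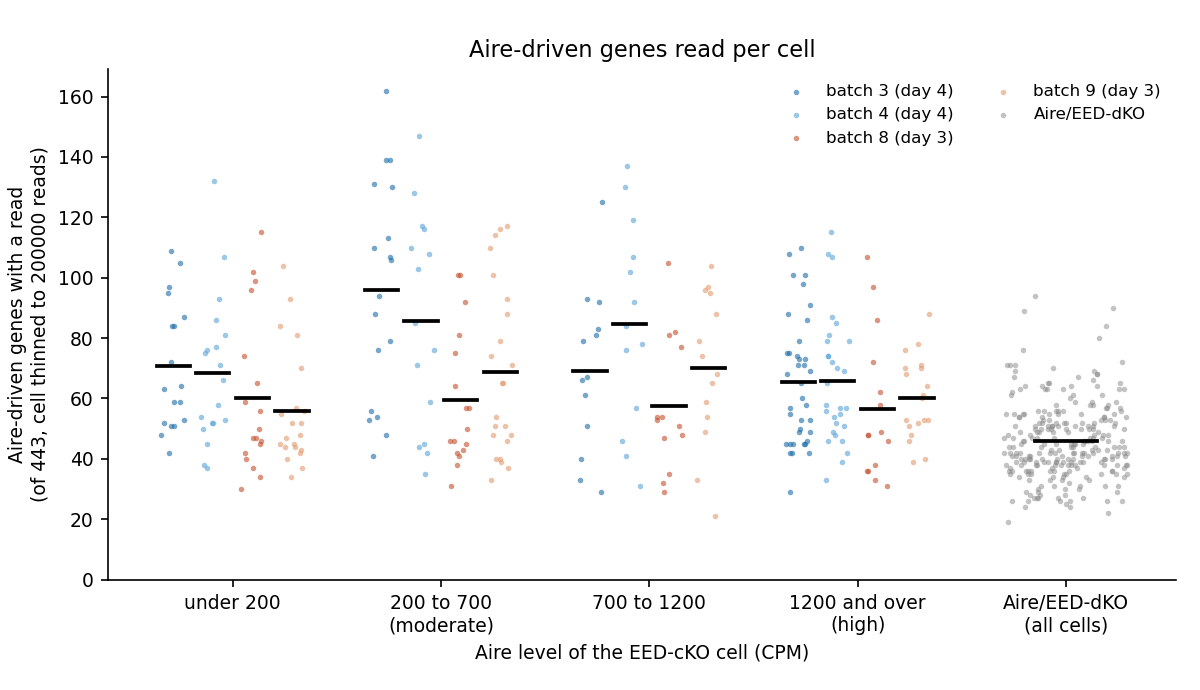
Number of the 443 Aire-driven genes with at least 1 read in a cell thinned to 200000 reads (vertical axis) by the Aire level of the EED-cKO cell in CPM (horizontal axis), with Aire/EED-dKO cells at the right. Points are cells, colors are batches and bars are batch means (in Aire/EED-dKO the mean of all cells). Averaged over batches the means are 63.9 under 200 CPM, 77.4 at moderate dose, 70.4 between the ranges, 61.9 at high dose and 45.4 in Aire/EED-dKO.

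The cells left out by the rule placed this along the range of Aire. The mean over batches was 63.9 Aire-driven genes in cells under 200 CPM (55.9 to 70.8), 77.4 at moderate dose (59.4 to 95.9), 70.4 between the ranges (57.5 to 84.6) and 61.9 at high dose (56.5 to 65.8). The moderate range was thus the highest of the 4 on the mean, but batch ranges overlapped between every pair of neighbors. Aire/EED-dKO cells, in other batches, had 45.4 (41.6 to 50.5), or 45.4 without the 2 libraries of high Aire, below each of these ranges.

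High-dose cells also had fewer genes in all. A thinned cell had reads from 11683 genes at high dose (batch means 11619 to 11753) and from 12611 at moderate dose (12161 to 13181), a difference of -928 that was negative in each batch (-1428 to -532). Relative to this, Aire-driven genes made 5.34 of every 1000 genes read at high dose and 6.09 at moderate dose. The day 3 differences on that scale were -0.09 and -0.31, and the day 4 differences -1.53 and -1.07. Aire-enhanced genes differed more evenly between batches, with 90.3 per cell at high dose (88.6 to 93.1) and 118.4 at moderate dose (108.1 to 131.6). The difference was -28.2 genes, between -38.4 and -19.5 by batch. The batch ranges of the arms did not overlap. In cells under 200 CPM, 117.6 Aire-enhanced genes were read, near the moderate arm, and 102.6 between the ranges. Aire/EED-dKO cells had 88.4 (81.4 to 95.8), near the high-dose arm. Of every 1000 genes read, Aire-enhanced genes made 7.72 at high dose and 9.33 at moderate dose.

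Gene by gene, 395 Aire-driven genes passed the filter (5 reads or more in 5 or more of the compared cells), and 66.8% of these were read in a larger share of moderate-dose cells and 33.2% in a larger share of high-dose cells. Over all 25389 genes tested these shares were 63.5% and 30.7%, close to those of the Aire-driven genes. The median gene among the 395 Aire-driven genes was read in 11.9% of high-dose, 15.1% of moderate-dose and 6.69% of Aire/EED-dKO cells. The other 48 listed genes did not pass the filter and are not counted. Together the 443 genes made 6316 CPM at high dose (4507 to 7643 by batch) and 7323 CPM at moderate dose (4967 to 10037), a log2 ratio of -0.21 that was negative in 3 of 4 batches and positive in batch 8. The same genes made 8356 CPM in cells between the ranges and 1603 CPM in Aire/EED-dKO. The summed level therefore did not differ beyond the spread of batches.

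For single genes, the reads of all cells of an arm in a batch were added up, turned to CPM and averaged over batches, and log2 ratios were taken with 0.1 CPM added. A gene is called higher or lower below when it differed at least 2-fold and in the same direction in all 4 batches. Of 25389 genes tested, 1158 (4.56%) were called higher and 1953 (7.69%) lower at high dose, together 12.3%. The median over all genes was -0.18 on the log2 scale. With TMM scaling that shift was -0.02, and 1519 genes were higher and 1491 lower, so the excess of lower genes depends on the scaling. All 1158 and 1491 of the 1953 calls were kept. Of the 395 Aire-driven genes tested, 27 were called higher (6.84%) and 44 lower (11.1%), with a median log2 ratio of -0.42 (-0.25 with TMM scaling). Of the Aire-enhanced genes tested, 8 were called higher (2.82%) and 72 lower (25.4%), with a median of -0.77.

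**Figure D2:**
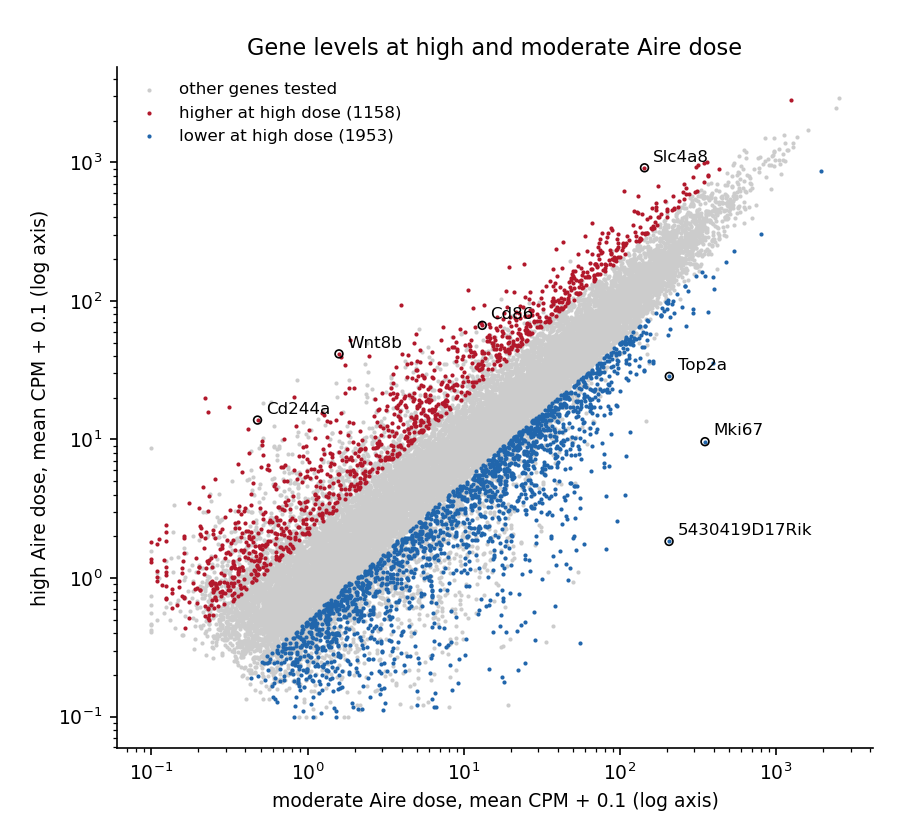
Mean CPM plus 0.1 over 4 batches at high Aire dose (vertical log axis) against moderate dose (horizontal log axis) for 25389 genes without Aire. Red points are 1158 genes called higher and blue points 1953 called lower, with genes named in the text circled. Slc4a8 lies far above and Mki67, Top2a and 5430419D17Rik far below the bulk of genes.

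The 10 Aire-driven genes of highest level went both ways. Wdfy4, which serves cross-presentation in dendritic cells, had 178.1, 196.5, 232.4 and 81.5 CPM at high dose and 43.96, 39.5, 68.3 and 71.99 CPM at moderate dose in batches 3, 4, 8 and 9 (log2 ratio 1.62). It was higher in each batch, though little so in batch 9. Tgfbi, an extracellular matrix protein that also stood on the list of mTEClow markers, had 117.5, 138.03, 63.1 and 42.7 CPM at high dose against 255.7, 298.4, 255.1 and 188.1 CPM (log2 ratio -1.46), without overlap of the batch values. Armcx4 was also called higher (148.3 against 59.4 CPM, log2 ratio 1.32). The other 7 were not called. Cacna2d2, a calcium channel subunit, had 170.4 and 108.96 CPM and Gpr50, an orphan receptor related to melatonin receptors, 49.4 and 133.03 CPM, each with at least 1 batch near a ratio of 0.

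For the Aire-driven genes at both ends of the ratios, 1 cell held a sizeable part of the reads. Wnt8b, a Wnt ligand of the developing brain, was the Aire-driven gene with the largest log2 ratio (4.71) among called genes with at least 5 reads in 20% of high-dose cells. It had 5 reads or more in 25 high-dose and 7 moderate-dose cells, and 1 high-dose cell held 19.004% of its reads. Thbs4, a thrombospondin, was at the other end (log2 ratio -5.07, 1.65 against 58.7 CPM). A single moderate-dose cell held 50.1% of its reads, and its batch 9 ratio was only -0.35.

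Of 6 genes tested within 100 kb of Aire on chromosome 10, 3 were called higher and 0 lower, beside 12.3% of all genes in either direction. Aire lies at chr10:78030022-78043610 on the minus strand of GRCm38, and Dnmt3l, a cofactor of DNA methyltransferases that starts within the Aire locus on the other strand (chr10:78041947-78063622), overlaps it. Dnmt3l had 67.5, 67.7, 77.3 and 97.1 CPM at high dose and 26.4, 15.2, 28.3 and 28.6 CPM at moderate dose in batches 3, 4, 8 and 9, a log2 ratio of 1.65 without overlap of the batches. It had at least 5 reads in 94.1% and 75.3% of cells. The authors counted reads without regard to strand, so reads of Aire and Dnmt3l cannot be told apart where the 2 genes overlap. In Aire/EED-dKO Dnmt3l had 46.3 CPM. Icosl, the ligand of the T cell costimulator ICOS (chr10:78069302-78083913), does not overlap Aire and had 773, 814, 858 and 797 CPM against 282.4, 270.3, 482 and 430.0 CPM (log2 ratio 1.15). It reached 996 CPM in Aire/EED-dKO, above the high-dose cells. Gm47922, a lincRNA within 100 kb of Aire, was at 25.99 and 7.19 CPM (log2 ratio 1.84). Pfkl, phosphofructokinase of the liver type, Trpm2, a cation channel, and 1810043G02Rik in the same window were not called, with log2 ratios of 0.10, 0.41 and -0.38.

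The promoter windows of the overlapping pair are shown, from 250 bases before to 50 after a start (RefSeq, GRCm38.p6, and the first of 3 starts listed for Dnmt3l). Capitals mark CCAAT and TTTGAA on either strand (ATTGG and TTCAAA on the other), motifs searched for the cycling genes described later. The motifs share no bases with each other in any sequence shown.
Aire (chr10:78043561-78043860, - strand): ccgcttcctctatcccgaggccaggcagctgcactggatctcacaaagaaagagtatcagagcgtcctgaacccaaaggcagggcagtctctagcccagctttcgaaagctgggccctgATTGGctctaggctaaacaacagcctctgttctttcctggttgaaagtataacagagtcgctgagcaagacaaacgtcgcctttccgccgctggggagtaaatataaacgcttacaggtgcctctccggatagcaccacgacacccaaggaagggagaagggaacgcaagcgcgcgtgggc
Dnmt3l (chr10:78042037-78042336, + strand): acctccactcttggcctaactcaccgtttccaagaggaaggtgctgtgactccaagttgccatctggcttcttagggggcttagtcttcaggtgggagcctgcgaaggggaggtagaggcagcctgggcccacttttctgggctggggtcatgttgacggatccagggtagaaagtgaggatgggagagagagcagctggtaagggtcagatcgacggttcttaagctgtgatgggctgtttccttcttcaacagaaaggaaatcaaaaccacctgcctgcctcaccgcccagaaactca
The Aire window has 16 CG dinucleotides and 1 CCAAT match, and the Dnmt3l window 6 and 0.

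Among genes well read in both arms, Slc4a8, a sodium-coupled bicarbonate transporter, stood out and was chosen after its values were seen. It had 1129, 1042, 755 and 725 CPM at high dose and 80.2, 129.3, 236.8 and 128.5 CPM at moderate dose in batches 3, 4, 8 and 9, a log2 ratio of 2.67. The batches did not overlap. All high-dose cells had 5 reads or more of it (exact 95% interval of the share 96.4% to 100%, which covers counting error among cells of 1 sample only, as do the other intervals of shares) and 63 of 73 moderate-dose cells (86.3%, 76.2% to 93.2%). By cell the median was 714 CPM (4.88 to 3693) and 52.6 CPM (0 to 989.6). Cells between the ranges had 477 CPM and Aire/EED-dKO cells, in other batches, 519 CPM, both between the arms. The part of Aire in this level was not tested. Its promoter window is given for reference to these values and has 21 CG dinucleotides and 2 CCAAT matches, both on the minus strand.
Slc4a8 (chr15:100761497-100761796, + strand): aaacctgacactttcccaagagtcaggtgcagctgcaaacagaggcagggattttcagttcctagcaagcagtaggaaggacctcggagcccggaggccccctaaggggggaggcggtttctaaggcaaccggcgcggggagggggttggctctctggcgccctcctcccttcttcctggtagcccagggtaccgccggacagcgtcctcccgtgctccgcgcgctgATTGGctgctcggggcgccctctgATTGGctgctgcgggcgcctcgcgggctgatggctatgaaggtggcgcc

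**Figure D3:**
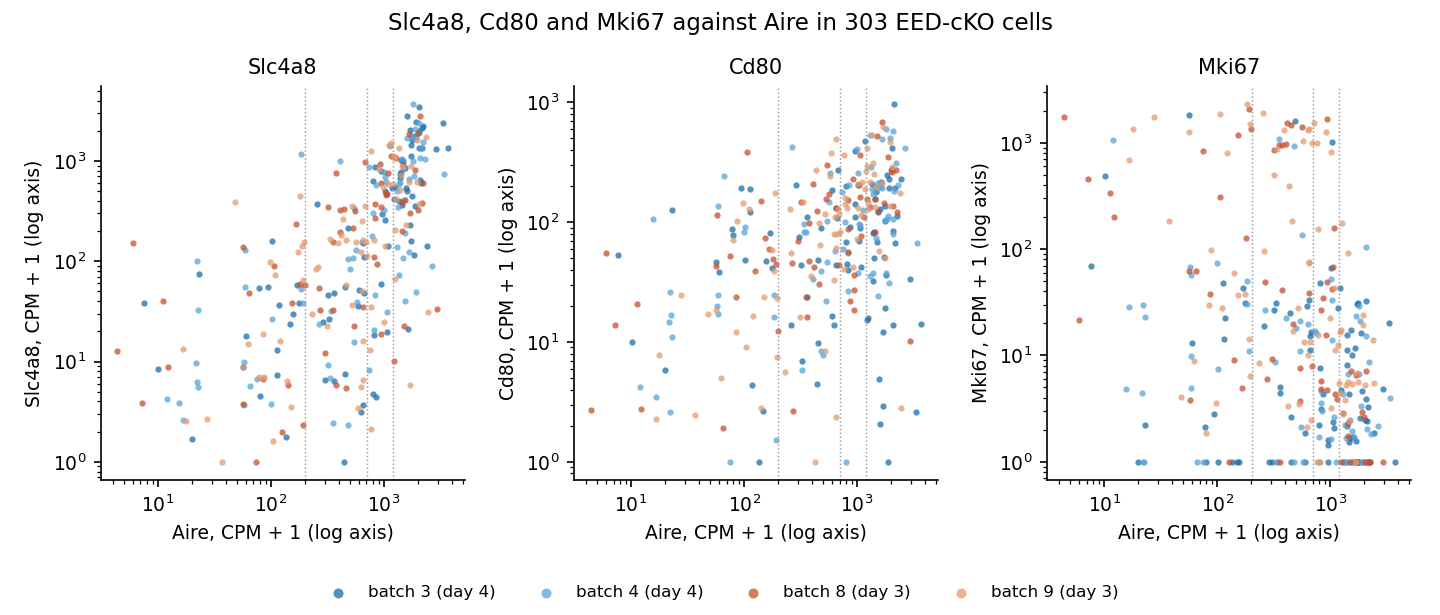
Slc4a8, Cd80 and Mki67 in CPM plus 1 (vertical log axes) against Aire in CPM plus 1 (horizontal log axes), with each point 1 EED-cKO cell colored by batch. Dotted lines mark 200, 700 and 1200 CPM. Slc4a8 increases along Aire, Cd80 overlaps between the arms, and Mki67 is above 200 CPM in 19 moderate-dose cells and in no high-dose cell.

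Other genes with a clear gap in many cells, also chosen after their values were seen, were Nxpe3 (120.6 against 10.5 CPM), Nsg2, a neuronal endosomal protein (93.7 against 13.3 CPM), and Il13, a type 2 cytokine (54.8 against 8.41 CPM). Their log2 ratios were 3.50, 2.81 and 2.69. Siglec15, a lectin of the osteoclast lineage, had 5 reads or more in 66.3% of high-dose (67 cells) and 17.8% of moderate-dose cells (13 cells). Nxpe3 and Il13 were at 183.3 and 87.9 CPM in Aire/EED-dKO, above the high-dose arm, whereas Siglec15 was at 17.8 CPM, between the arms.

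By the rule of largest ratio among called genes with at least 5 reads in 20% of the cells of the higher arm, 727 higher genes qualified. The first 12 ran from Cd244a (log2 ratio 4.85), an NK cell receptor of the SLAM family, to the processed transcript E230034D01Rik (3.55). Cd244a had 22.6, 27.2, 3.28 and 1.77 CPM at high dose and at most 0.723 CPM at moderate dose, where 2 of 73 cells had 5 reads or more. It overlaps Ly9, and 1 high-dose cell held 32.2% of its reads. Kcnc1, a potassium channel, was the most abundant of the 12, with 97.4, 74.6, 85.5 and 112.9 CPM against 12.4, 0.102, 0.344 and 2.58 CPM. The 12 further held Kpna7, an importin, Wnt8b, Xkrx, Vstm2l, Rgr, an opsin of the retinal pigment epithelium, Xirp1 of striated muscle, Slitrk5 of neurons, 6330409D20Rik, and Rag1, the V(D)J recombinase of lymphocytes. Rag1, which is also on the list of hematopoietic markers, was at 12.4 and 0.742 CPM and reached 36.9 CPM in Aire/EED-dKO. Each of the 12 had at least 5 reads in no more than 44.6% of the high-dose cells, and the least widely read in 20.8%.

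**Figure D4:**
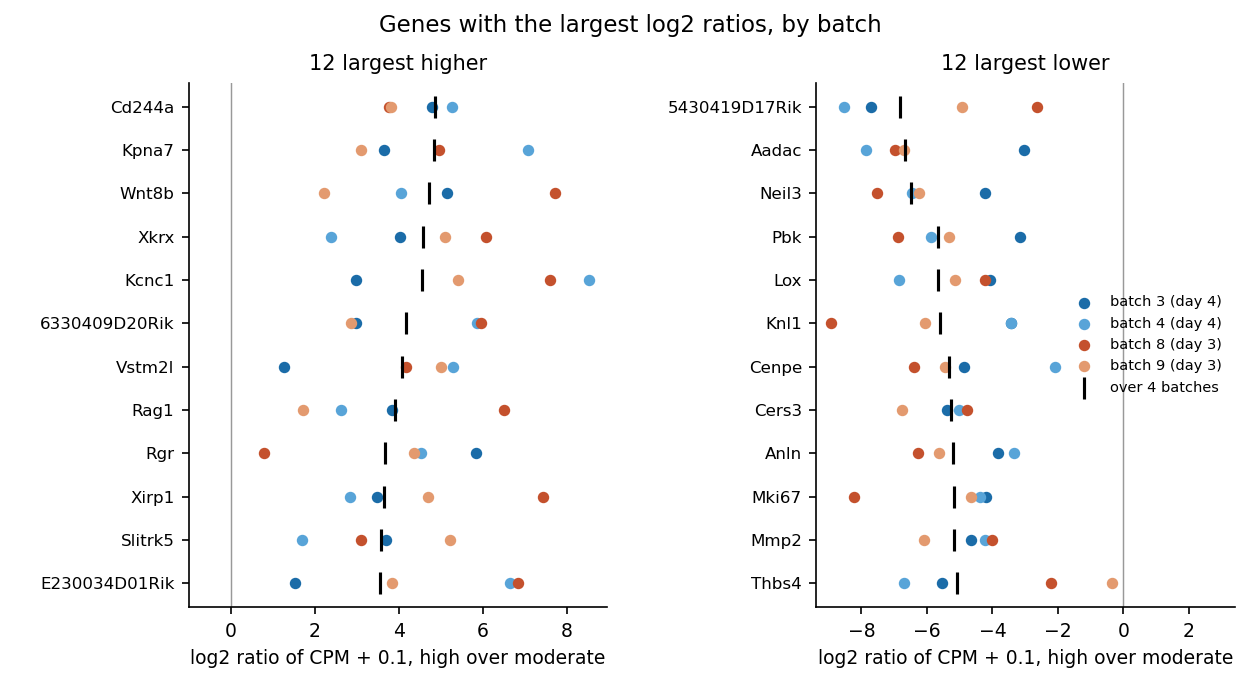
Log2 ratio of CPM plus 0.1, high over moderate (horizontal axes), in each of 4 batches (points) and over them (bars) for the 12 called genes with the largest ratio in each direction. All points lie on the side of the call, which the call rule requires, but they spread over several log2 units within a gene.

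Cycling genes were the group that was most uniformly lower. All 11 were tested and 9 were called lower (81.8%, beside 7.69% of all genes) and 0 higher (4.56% of all). Their sum was 152.6 CPM at high dose (87.8 to 237.7) and 1088 CPM at moderate dose (459 to 1783), a log2 ratio of -2.83 with every batch apart. Mki67, the Ki-67 antigen, had 6.78, 8.05, 1.77 and 21.6 CPM at high dose and 127.4, 171.002, 563 and 542 CPM at moderate dose in batches 3, 4, 8 and 9 (log2 ratio -5.19). At least 5 reads were found in 37.6% of high-dose and 73.97% of moderate-dose cells. The median cell had 1.79 and 18.8 CPM, and a level over 200 CPM was found in 0 high-dose and 19 moderate-dose cells. Top2a, topoisomerase II alpha, had 28.4 and 207.2 CPM (log2 ratio -2.86), and Cdk1, the mitotic kinase, 15.4 and 85.98 CPM (-2.47). Ccnb1, Aurkb, Cenpf, Anln, Birc5 and Mcm5 were the other called members, at log2 ratios between -5.22 and -1.42. Leaving out the tenth of EED-cKO cells with the most cycling reads removed no high-dose cell and left 59 of 73 moderate-dose cells. The sum then had a log2 ratio of -0.94 and 3 of the 11 genes were called lower, while Top2a turned to 0.18. Reads of these same genes chose the cells left out, so these values are a description only.

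The promoters of these members were searched for 2 motifs picked because the genes are cycling genes, so the shares are a description only. Of the 11 genes 9 had a RefSeq window. CCAAT, the site bound by NF-Y, was found in 7 of 9 on either strand, and in 37.9% of the 27025 genes with a window. TTTGAA, the core of the CHR element of late cell cycle genes, was found in 5 of 9 and in 18.1% of all. Both were in 4 of 9 and in 7.12% of all. Among the genes tested that have a window, CCAAT was in 37.8%, TTTGAA in 13.3% and both in 5.42%. A match is only the presence of the letters. Mki67, Cdk1 and Top2a are shown as the cycling genes of high level that carry both.
Mki67 (chr7:135716330-135716629, - strand): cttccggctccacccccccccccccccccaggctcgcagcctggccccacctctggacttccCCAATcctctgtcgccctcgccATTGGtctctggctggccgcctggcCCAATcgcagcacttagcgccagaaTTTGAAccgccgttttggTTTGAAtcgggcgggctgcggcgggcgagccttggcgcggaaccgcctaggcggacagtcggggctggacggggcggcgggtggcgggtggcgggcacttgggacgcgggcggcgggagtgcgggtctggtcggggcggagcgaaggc
Cdk1 (chr10:69352863-69353162, - strand): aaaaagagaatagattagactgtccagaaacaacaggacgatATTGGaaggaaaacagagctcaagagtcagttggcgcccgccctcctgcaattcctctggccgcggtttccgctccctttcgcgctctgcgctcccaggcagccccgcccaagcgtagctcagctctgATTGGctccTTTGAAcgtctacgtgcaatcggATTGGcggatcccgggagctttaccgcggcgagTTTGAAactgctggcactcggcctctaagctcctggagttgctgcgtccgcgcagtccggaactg
Top2a (chr11:99024140-99024439, - strand): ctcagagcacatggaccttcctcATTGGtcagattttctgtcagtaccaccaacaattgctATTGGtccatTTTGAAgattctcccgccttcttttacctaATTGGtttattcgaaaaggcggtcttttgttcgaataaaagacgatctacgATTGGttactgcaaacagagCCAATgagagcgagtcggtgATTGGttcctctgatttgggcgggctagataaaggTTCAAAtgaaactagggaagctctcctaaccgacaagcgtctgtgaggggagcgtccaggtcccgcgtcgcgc
The windows hold 3, 3 and 6 matches of CCAAT and 2 matches each of TTTGAA.

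The 12 genes with the largest ratio in the lower direction, from 1243 that qualified, were headed by 5430419D17Rik (log2 ratio -6.81), which had 427, 327, 16.2 and 55.6 CPM at moderate dose and at most 2.52 CPM at high dose. It lies over Fgfr2, and 18 of 73 moderate-dose cells had at least 5 reads. Neil3, Pbk, Knl1, Cenpe, Anln and Mki67 of the 12 serve DNA repair or cell division. Aadac, a liver deacetylase (0.119 against 22.2 CPM), Cers3, a ceramide synthase of the epidermis (0.350 against 17.1 CPM), and Mmp2 and Lox, which act on the extracellular matrix, are not cycling genes. Aadac and Neil3 had 5 reads or more in 0 high-dose cells, which allows a share of up to 3.59% (exact interval), and in 18 moderate-dose cells each. Both were selected by their ratio, so this gap is a description. Wnt5a, a Wnt ligand chosen after its values were seen, had 7.54 against 109.3 CPM (log2 ratio -3.84).

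Markers of mTEClow were lower in part. Of 10 genes 4 were called lower (beside 7.69% of all genes) and 0 higher (4.56% of all), namely Apoe, a lipid carrier (16.98 against 68.6 CPM), Pdpn, podoplanin (22.1 against 76.7 CPM), Col6a2, a collagen chain (32.6 against 97.6 CPM), and Tgfbi. Krt5, a basal keratin, had 163.4 and 321 CPM and missed the 2-fold line (log2 ratio -0.98), whereas Itga6 and Itgb4, the integrin pair of basal epithelium, had log2 ratios of 0.17 and 0.22. The sum was 1676 CPM (1452 to 1861) against 2064.3 CPM (1822 to 2292.2), lower in each batch, but with TMM scaling the log2 ratio of batch 3 turned from -0.19 to 0.02 and that over all batches went from -0.30 to -0.13.

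Genes of mature mTECs went the other way. Of 14 genes for antigen presentation and costimulation, 3 were called higher (21.4%, beside 4.56% of all genes) and 0 lower (7.69% of all), and their sum was 7844 CPM at high dose (7265 to 8430) against 6011 CPM at moderate dose (5594 to 6435), without overlap. In Aire/EED-dKO, in other batches, the sum was 9125 CPM (8632 to 9568), above both arms. The called genes were Icosl and the CD28 ligands Cd80 and Cd86. Cd80 had 133.7, 209.1, 247.1 and 234.2 CPM at high dose and 83.01, 86.4, 98.4 and 118.4 CPM at moderate dose (log2 ratio 1.09). Cd86 had 40.7, 33.8, 101.4 and 90.3 CPM against 7.71, 10.3, 30.6 and 3.59 CPM (2.34), with 1 moderate-dose cell holding 43.1% of the reads of its arm. MHC class II differed little, with log2 ratios of 0.16 for Cd74, the invariant chain, and 0.23, 0.26 and 0.24 for H2-Aa, H2-Ab1 and H2-Eb1, each positive in the 4 batches. The 14 transcription factors of Aire-expressing mTECs had 0 calls (2 higher with TMM scaling) and a sum of 3715 against 2895 CPM, higher in each batch. Of these factors 10 had a log2 ratio above 0 and 4 below. Nfkb1 and Relb, NF-kappaB subunits, were at log2 ratios of 0.38 and 0.28, and Spib at 0.31. The 11 genes of the MHC class I pathway had 0 calls and sums of 4328 and 4368 CPM, a log2 ratio of -0.01 that became 0.16 with TMM scaling.

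Chemokines and cytokines were split, with 4 of 16 tested called higher (25.0%, beside 4.56% of all genes) and 2 lower (12.5%, beside 7.69%). Tnfrsf11b, the decoy receptor of RANKL, had 412, 454, 568 and 476 CPM at high dose and 161.6, 101.5, 232.3 and 181.3 CPM at moderate dose (log2 ratio 1.497). Ccl22 and Ccl17, ligands of CCR4, and Ccl25, the ligand of CCR9, had log2 ratios of 1.47, 1.21 and 1.81. Ccl20 (11.2 against 69.95 CPM) and Tnfsf11, which encodes RANKL (2.61 against 14.99 CPM), were lower. Ccl22 was level between arms in batch 8 (134.1 and 129.8 CPM).

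**Figure D5:**
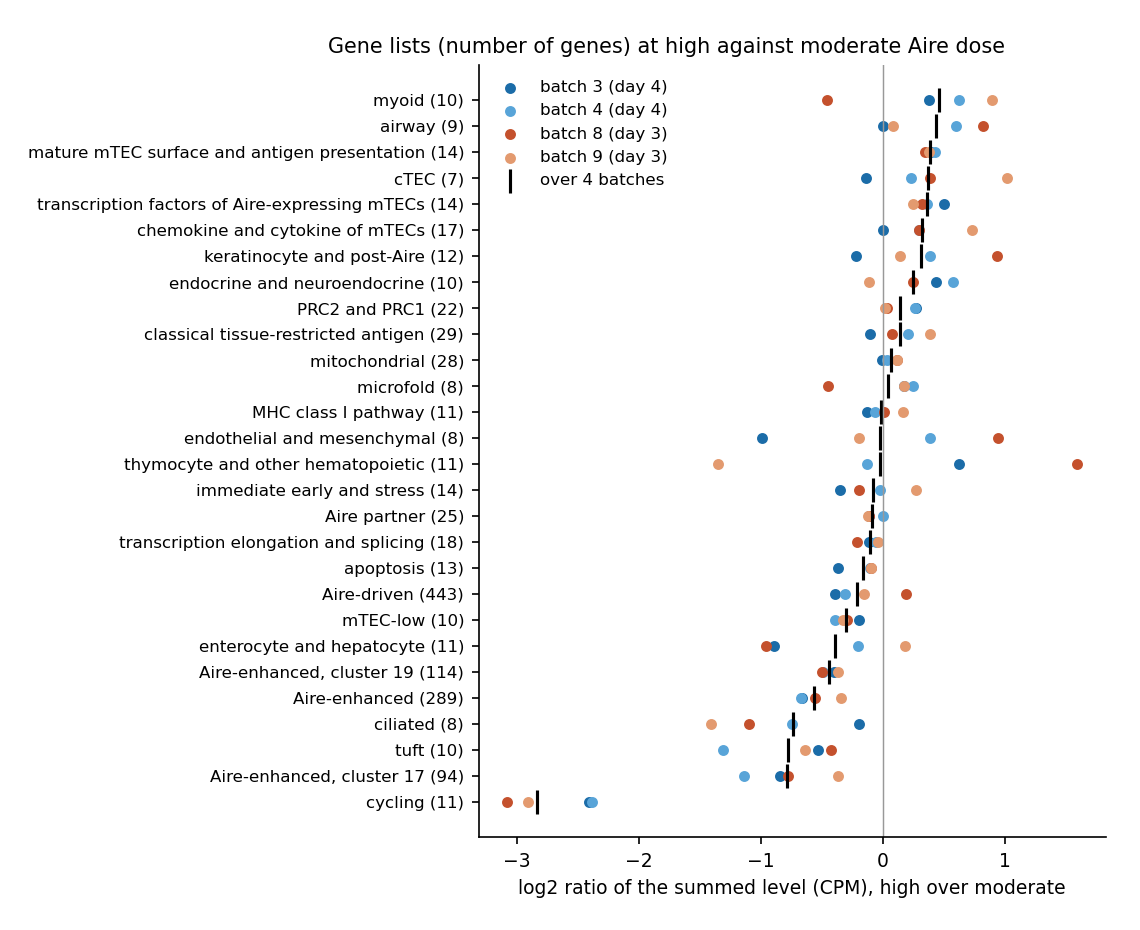
Log2 ratio of the summed CPM of each gene list, high over moderate (horizontal axis), in each of 4 batches (points) and over them (bars), with the number of genes in brackets. Cycling genes lie between -3.08 and -2.38, the mature mTEC list between 0.35 and 0.42, and most lists of mimetic cells spread to both sides of 0.

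Of 25 Aire partners 2 were called higher (8.00%, beside 4.56% of all genes) and 2 lower (8.00%, beside 7.69%), and 21 had a log2 ratio below 0, as did 61.6% of all genes. Their median was -0.35, negative in each batch, and -0.18 with TMM scaling. Their sum was 3853 against 4099.9 CPM, lower in each batch but by only -0.000819 on the log2 scale in batch 4, and the log2 ratio of the sum turned from -0.09 to 0.08 with TMM scaling. Sirt1, a deacetylase that acts on Aire, had 355, 568, 508 and 601 CPM at high dose against 222.3, 109.9, 163.6 and 188.6 CPM (log2 ratio 1.57), and with Dnmt3l made the 2 higher of 25 partners. Dnmt3l overlaps Aire, where reads of the 2 genes cannot be told apart, so its call may not be independent of the choice of cells. Top2a and Xrcc5, a DNA end-binding protein (16.3 against 36.7 CPM), made the 2 lower, of which 1 was called with TMM scaling. Crebbp and Smarca4 had log2 ratios of 0.02 and -0.22. None of 22 Polycomb genes was called. The list holds PRC2 and PRC1 genes and also Kdm6a and Kdm6b, H3K27 demethylases that belong to neither complex. Of these genes 18 had a log2 ratio below 0, with a median of -0.44, negative in each batch, and of -0.27 with TMM scaling. Their sum went the other way, 2053.9 against 1869 CPM (log2 ratio 0.14), with batch values of 0.27 and 0.26 at day 4 and 0.03 and 0.02 at day 3, and Kdm6a is part of it. The 3 genes of highest level on the list were among the 4 above 0. Jarid2, a PRC2 cofactor, had 467 and 257.2 CPM (0.86), and Kdm6a 317 and 167.4 CPM (0.92), each higher in the 4 batches, and Aebp2, another PRC2 cofactor, 371 and 244.1 CPM (0.61). Rbbp4, a histone-binding subunit and the next in level, had 175.3 and 215.5 CPM (-0.30). Jarid2 and Kdm6a passed the 2-fold line with TMM scaling. Reads of Eed, which were not split into the deleted and the other exons, made 9.72 and 12.8 CPM. Among 18 genes of elongation and splicing none was called, and Polr2a, the large subunit of RNA polymerase II, had 219.1 and 367 CPM (-0.74), lower in each batch.

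Of mimetic cell lists, tuft and ciliated markers had lower sums in each batch and airway markers higher ones, but with TMM scaling the ciliated log2 ratio of batch 3 turned from -0.19 to 0.02. The shares called below stand beside 4.56% higher and 7.69% lower of all genes. The 10 tuft genes made 152.7 CPM at high dose (115.1 to 206.97) and 261.5 CPM at moderate dose (154.9 to 380.5). Dclk1 made most of it (78.2 against 183.8 CPM, log2 ratio -1.23). Of the 7 tuft genes tested 2 were called lower (28.6%) and 1 higher (14.3%), but 4 were above 0, with a median log2 ratio of 0.30. Avil was lower with Dclk1 and Gng13 higher, whereas Pou2f3, the tuft cell regulator, was not called (0.30). The 8 ciliated genes made 195.3 CPM (100.5 to 336) and 326 CPM (266.9 to 384), with Dnah5, an axonemal dynein, and Rfx2 called lower (25.0% of the list), neither of them with TMM scaling, and Foxj1 not (-0.18). Of 11 keratinocyte genes tested Grhl3 and Flg were called higher (18.2%) and Krtdap lower (9.09%), and of 10 endocrine genes Insm1 (184.4 against 75.8 CPM) and Foxa2 were called higher. The 9 airway genes made 477 against 352 CPM (log2 ratio 0.44), with a log2 ratio of only 0.00127 in batch 3, and Muc5ac held 38.1% of the sum over both arms. The 10 myoid genes made 1716 against 1249 CPM, higher in 3 of 4 batches (0.46), with 82.8% over both arms from Ttn, the giant sarcomere protein, and Neb was called lower (1 of 10). None of 11 enterocyte and hepatocyte or 9 airway genes was called (1 airway gene was higher with TMM scaling), and the microfold list had only Ccl20. Of 22 classical tissue-restricted antigens tested, Tnnt2, cardiac troponin T (127.4 against 37.2 CPM), and Tg, thyroglobulin (51.8 against 7.08 CPM), were called higher (9.09%) and 0 lower. The median of the list was -0.03, with 11 genes above and 11 below 0, and 1 cell held 58.4% of the high-dose reads of Tg. Csn2, the most abundant, had 311 and 304 CPM.

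Of 14 stress genes 0 were called higher and 2 lower (14.3%), and of 13 apoptosis genes 1 higher and 1 lower (7.69% each), beside 4.56% and 7.69% of all genes. Jun (65.9 against 144.2 CPM) and Atf3 (10.5 against 35.8 CPM), stress-induced transcription factors, were lower (1 of the 2 with TMM scaling). Bcl2l1, which encodes the survival protein BCL-XL, had 82.9, 90.1, 92.8 and 88.8 CPM at high dose against 49.3, 46.4, 36.4 and 35.7 CPM and was higher (log2 ratio 1.08), and Cdkn1a, the p21 cell cycle inhibitor, was lower without TMM scaling only (101.5 against 204.4 CPM). Of 7 cTEC genes Tbata was higher and Ctsl lower (14.3% each), and their sum of 501 against 389 CPM was higher in 3 of 4 batches (log2 ratio 0.37). Of 7 endothelial and mesenchymal genes tested Pdgfrb was higher (125.1 against 41.5 CPM), or 14.3%, and 0 were lower.

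Cells that the rule had not used gave levels for the same genes. In the 53 cells between the ranges, 917 of 1158 higher genes (79.2%) and 1508 of 1953 lower genes (77.2%) lay between the levels of the arms, as did 46.7% of all genes tested. Called genes were chosen for a gap of at least 2-fold, into which a further value falls more readily than into a narrow one, so all genes are no matched reference and these shares are a description only. In Aire/EED-dKO, 31.7% of the higher genes were at or above the high-dose level, and 26.8% of all genes tested were at or above their higher arm. Of the lower genes 7.63% were there at or above the moderate-dose level and 21.7% at or below the high-dose level, where 39.1% of all genes were at or below their lower arm. Between the ages, 48.4% of the genes chosen as higher in the day 4 batches alone were higher in both day 3 batches, against 22.7% of all genes, and their median log2 ratio fell from 1.66 to 0.76. For 3973 genes chosen as lower the share was 48.5% against 39.04%. With genes chosen in the day 3 batches and read at day 4, 45.8% of the higher genes kept their direction, against 22.9% of all. Their median log2 ratio fell from 1.74 to 0.49. For the lower genes of that choice the share was 54.1% against 39.9%. The gene filter used cells of both ages, so these shares are a description only. Long intergenic noncoding RNAs made 13.1% of the higher and 4.97% of the lower genes, and 6.07% of all tested.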

How the data were processed

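The authors deposited raw read counts per gene and cell from RamDA-seq of 572 sorted mTEChigh. Their processing notes name fastp 0.20.0, STAR 2.7.3a, SAMtools 1.9, Picard 2.21.1 and HTSeq 0.11.2, with reads on mm10. Names and coordinates came from GENCODE M21 (GRCm38), which matched 50011 of 50197 identifiers. Counts have no molecular identifiers, so intervals cover counting error only, and doublets were not called. The members and gene lists were chosen with earlier results of these data known. Aire-driven and Aire-enhanced genes were the held rows of the study's table of bulk WT against Aire-KO, which was held in part (1998 rows). That table is from other samples. The study took both classes from genes higher in adult WT than in adult Aire-KO cells in its single-cell RNA and ATAC data. It assigned them by cluster, and the table carries the cluster labels, whereas the cells here are neonatal.

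CPM was the count divided by the cell's total. Reads of an arm were summed per batch, and batch CPM averaged. Genes needed at least 5 reads in at least 5 compared cells. For genes per cell, cells were thinned to 200000 reads, which left out 0 cells. No test was run, because the labels name no animal. Named were Aire, Eed, genes within 100 kb of Aire, the 10 Aire-driven genes of highest level, the 12 largest ratios in each direction among called genes with 5 reads in 20% of the cells of the higher arm, and up to 4 genes of highest level per list plus those called. Other genes are said to be chosen after their values were seen. Alternatives were other dose ranges, scalings (edgeR 4.0.16, DESeq2 1.42.0), filters, added CPM, ages and left-out cells or batches. The procedure was run on simulated data with independent noise and no batch effect, and only genes of higher level were scored. That run does not cover weakly read genes or genes carried by few cells. Python 3.11.15, numpy 2.4.6, scipy 1.17.1, pandas 2.3.3 and matplotlib 3.10.9 were used.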

Additional observations from a re-analysis of the deposited data

Results flagged for a closer look

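In 65 sets of 4 batch values examined, 7 had a batch apart from the other 3 by Dixon's criterion, which chance gives in about 1 in 20 sets. The median log2 ratio of Aire-driven genes was -0.017 in batch 8, against -0.51 to -0.44 in the other batches. Among lists, the summed level of Aire partners was apart in batch 4 (log2 ratio -0.000819), that of microfold markers in batch 8 (-0.45) and that of apoptosis genes in batch 3 (-0.37). Among genes, Mki67 was apart in batch 8 (-8.24), the calcium channel subunit gene Cacna2d2 in batch 4 (3.41) and the basement membrane gene Nid1 in batch 3 (0.53).

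The summed level of the MHC class I pathway had opposite directions at the 2 ages, with a mean log2 ratio of -0.10 in the day 4 batches and 0.089 in the day 3 batches, and this difference was not tested. With TMM scaling the 4 batch values were all positive, 0.08 and 0.09 at day 4 and 0.16 and 0.32 at day 3.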

How the results depend on the processing

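By replicate number, no paired analysis was possible because a number names 1 cell and so pairs none between the arms. By batch, the arms were compared with each other, and the mean of the batch log2 ratios called 1183 genes higher (1158 from the mean CPM). The difference in Aire-driven genes per cell stayed negative under every alternative run for it. The summed level of Aire-driven genes (log2 ratio -0.21) was -0.04 with TMM scaling or DESeq2 size factors, -0.07 with reads pooled over batches and -0.08 with high dose from 1500 CPM. It was -0.35 in the day 4 batches alone and 0.025 in the day 3 batches alone. Without the tenth of cells with most cycling markers the summed level was -0.47. It became -0.69 without cells above the median of cycling markers. That setting was chosen after seeing the data and kept 58 high-dose and 23 moderate-dose cells in 3 batches. The median log2 ratio of Aire-driven genes (-0.42) was -0.25 with TMM scaling or with reads pooled over batches and -0.26 with DESeq2 size factors. This median became -0.12 in the day 3 batches, -0.72 without the tenth of cells with most cycling markers and -0.65 without cells above the median. Genes called higher numbered 1908 in the day 4 and 1922 in the day 3 batches alone, where 2 batches must point the same way instead of 4, and genes called lower 3356 in the day 4 batches. Without thinning, the difference in genes per cell was -1380. Higher genes made 37.2% of calls, 50.5% with TMM scaling and 50.3% with DESeq2 size factors. They made 28.9% with high dose from 1500 CPM.

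Leaving out each batch in turn gave -19.7 to -10.5 Aire-driven genes per cell, -0.31 to -0.13 for their summed level, -0.53 to -0.37 for their median, 1423 to 1571 genes higher, at most 2582 lower and -1059 to -761 genes per cell. Of single genes, Top2a turned to 0.18 without the tenth of most cycling cells. Without cells above the median of cycling markers Knl1 turned to 1.34, Cdk1 to 0.60 and Ccl22 to -0.21. Top2a and Cdk1 are on the list whose reads chose the cells left out, so their values depend on that choice. The cause of the changes in Knl1 and Ccl22 was not tested.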

Other observations

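Aire-enhanced genes fall into groups in the study's table, and the sums of both groups given here were lower at high dose in each batch. Of 94 genes of cluster 17, 37 were called lower at high dose (39.4%, beside 7.69% of all genes) and 1 higher (4.56% of all genes were), and their summed level was 2632 CPM at high dose (2298.03 to 2967 by batch) and 4545 CPM at moderate dose (3836 to 5252). Of the genes of cluster 19 tested, 23 were called lower (20.7%) and 4 higher (3.60%), with sums of 1918 CPM (1713 to 2243.5) and 2604 CPM (2213.4 to 2956). The log2 ratios of the sums were -0.79 and -0.44, and -0.37 in both groups in batch 9, and the difference between the groups was not tested. In Aire/EED-dKO the sums were 2202.3 and 1224 CPM.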
